A study of Mus musculus with 12 samples.

Results

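The genes described here form a module of TNF, NF-kB and immediate early response genes. It was set as a list of 37 gene names grouped by function. The rule that picks the rows uses no measured value, but the list was proposed with earlier results of these data known. All 37 were found among the 33018 lines of the count table. Of these, 35 passed the filter on low counts and were tested among 14142 genes, while Il6 and Ccl20 did not pass. RNA was sequenced from 12 subcutaneous MC38/hPD-L1 tumors, with 4 tumors in each of 3 groups, and reads per gene were counted. MC38 is a mouse colorectal adenocarcinoma line, and here it had been stably transduced with human PD-L1 because ALPN-202 does not bind the mouse protein. The first group was given ALPN-202 (100 µg), a variant CD80 IgV domain fused to an inert Fc that binds PD-L1, CTLA-4 and CD28. The second was given anti-PD-L1 (100 µg), the antibody durvalumab against human PD-L1, and the last was given an Fc control protein (75 µg). All hosts were female C57BL/6NJ mice, 8 to 10 weeks old at the start of the study, each injected intraperitoneally 1 time, on day 8, with tumor collection after another 72 h. The tumor cells of all 3 groups carried the added human PD-L1, whereas the host's own cells had only mouse PD-L1. The paper describes no removal of mouse PD-L1 from the tumor cells. Doses by weight differed between the Fc control and the other groups.

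NF-kB is a family of dimeric transcription factors that inhibitory IkB proteins hold in the cytoplasm. Receptors for TNF, IL-1 and microbial products activate the IkB kinase complex, the IkB proteins are degraded, and the freed dimers switch on cytokines, adhesion molecules and, as feedback, their own inhibitors. Immediate early genes such as Fos and Egr1 are transcribed within minutes of a stimulus, without new protein synthesis, mostly through MAP kinases and serum response factor. In tumors both programs run in cancer cells, macrophages, neutrophils and stromal cells. In bulk tumor RNA, fewer cells of a type and less RNA per cell cannot be told apart.

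Total counts were 3988266 to 10692817 per tumor. The libraries of ALPN-202 replicate 4 and Fc control replicate 1 stood apart. In these libraries short genes (the lowest 10% by length) were high (median log2 difference to each gene's median over tumors of 1.27 and 0.84) and long genes were low (-0.97 and -0.94). ALPN-202 replicate 4 was also the shallowest library. Adipocyte markers summed to 521 to 4684 CPM (read counts scaled to library size with TMM factors) in 4 tumors (ALPN-202 replicate 4, anti-PD-L1 replicates 2 and 4, Fc control replicate 4) and to 29.6 to 116 CPM in the other 8. Epithelial markers, the class of the labelled origin of the line, summed to only 14.4 to 23.6 CPM in those 8 tumors. Counts of members called are given with and without these libraries.

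Promoters are shown because the module is defined by shared regulation. NF-kB sites were searched as GGGNNNNNCC on both strands in the 250 bases before each RefSeq start site (GRCm38.p6), where N is any base, and 31 members had an entry. A match was found in 27 of the 31 members (87.1%), against 48.7% of 27025 genes with an entry. The letters are rich in G and C, and so were the members' windows, with a median GC content of 61.2% against 52.4% over all genes. The AP-1 site TGANTCA, which Fos and Jun proteins bind and which reads the same on both strands, was in 8 members (25.8%) and in 7.82% of all genes. A CArG box, the site of serum response factor, was in 2 members, Zfp36 and Egr2, and in 1.62% of all genes. Nfkb1, Relb, Nfkbiz, Map3k8, Egr1 and Egr3 had no entry and were not searched. Sites further than 250 bases from a start site were not searched in any gene. A match is a description of letters and not a mapped binding site. The last 150 bases before the start site are printed for Tnfaip3, Icam1, Ptgs2 and Zfp36, which had an unadjusted p under 0.05 between ALPN-202 and Fc control, and for Jun, which did not, with matches in capitals.
Tnfaip3 promoter (chr10:19015411-19015560, minus strand): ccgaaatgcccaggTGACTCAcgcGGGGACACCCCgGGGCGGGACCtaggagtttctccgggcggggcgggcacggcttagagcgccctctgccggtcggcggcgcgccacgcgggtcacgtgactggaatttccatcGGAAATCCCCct
Icam1 promoter (chr9:21015790-21015939, plus strand): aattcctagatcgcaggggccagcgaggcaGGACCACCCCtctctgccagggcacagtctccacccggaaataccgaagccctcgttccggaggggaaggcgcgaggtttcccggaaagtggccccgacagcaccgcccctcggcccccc
Ptgs2 promoter (chr1:150099881-150100030, plus strand): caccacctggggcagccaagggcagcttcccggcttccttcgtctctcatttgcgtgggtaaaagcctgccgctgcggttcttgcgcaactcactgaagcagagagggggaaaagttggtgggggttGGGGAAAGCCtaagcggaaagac
Zfp36 promoter (chr7:28379229-28379378, minus strand): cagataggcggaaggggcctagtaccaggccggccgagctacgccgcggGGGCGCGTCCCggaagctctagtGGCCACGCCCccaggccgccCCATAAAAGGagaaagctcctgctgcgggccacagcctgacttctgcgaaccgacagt
Jun promoter (chr4:95052223-95052372, minus strand): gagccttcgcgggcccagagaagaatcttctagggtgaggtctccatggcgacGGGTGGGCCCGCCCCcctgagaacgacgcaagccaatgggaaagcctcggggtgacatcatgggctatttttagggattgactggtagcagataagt

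Positions count back from the start site. The Tnfaip3 stretch belongs to 1 of 2 RefSeq start sites of this gene. Its leftmost capitals are an AP-1 match from -136 to -130, and the others are NF-kB matches, an overlapping pair from -126 to -116 and single ones from -114 to -105 and from -12 to -3. Those of Icam1 lay from -120 to -111 and those of Ptgs2 from -23 to -14. The last capitals of Zfp36, from -58 to -49, are the CArG box, and those before them are NF-kB matches. Jun held 3 overlapping NF-kB matches from -97 to -83. Among the 9 members that passed the test once ALPN-202 replicate 4 was left out, 8 of 9 held an NF-kB match, and among the other members with an entry 19 of 22 did.

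The comparison of ALPN-202 with Fc control asked how a costimulating PD-L1 antagonist changed tumor gene expression. The largest fold changes in the module, all toward higher levels in ALPN-202 tumors, were those of Il1a (log2 fold change 1.46 ± 0.38, SE), Icam1 (1.09 ± 0.32), Fos (1.07 ± 0.42), Ptgs2 (1.07 ± 0.23) and Tnfaip3 (1.07 ± 0.26), and no member passed the threshold over all genes. By edgeR's quasi-likelihood test with Benjamini-Hochberg adjustment, 0 of 35 members and 0% of the 14142 genes had an adjusted p under 0.05 in either direction. At an unadjusted p under 0.05, 14 members were higher and 0 lower, against a background of 7.2% of all genes higher and 1.98% lower. DESeq2 called 3 members higher (Ptgs2, Tnfaip3 and Il1a) and 0 lower, against 1.34% and 0.304% of all genes. The fold change was above 0 in 31 of 35 members, against 56.1% of all genes, and its median was 0.50, against 0.04 over all genes. On deposited TPM with limma (pseudocount 1) the members' median was 0.24 and that of all genes -0.12.

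Levels were uneven among the 4 ALPN-202 tumors. Replicate 1 exceeded the highest Fc control value in 31 of 35 members (23.7% of all genes), replicate 2 in 22 (24.2%) and replicate 3 in 27 (23.3%). ALPN-202 replicate 4, the shallow library with the length trend, exceeded it in 7 members (32.1%) was under the lowest Fc control value in 7 (26.5%), and it was the lowest ALPN-202 tumor for 27 members. Without it 9 members passed the threshold in edgeR, all of them higher: Tnfaip3, Ptgs2, Icam1, Il1rn, Fos, Fosb, Il1a, Birc3 and Tnip1, with 2.53% of all genes called higher. Without this library and Fc control replicate 1 together, 11 members passed (5.47% of all genes), namely those 9 with Tnfaip2 and Map3k8. Without the 4 tumors with adipocyte genes, 5 passed (2.51%): Tnfaip3, Ptgs2, Icam1, Il1rn and Fosb.

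**Figure D1:**
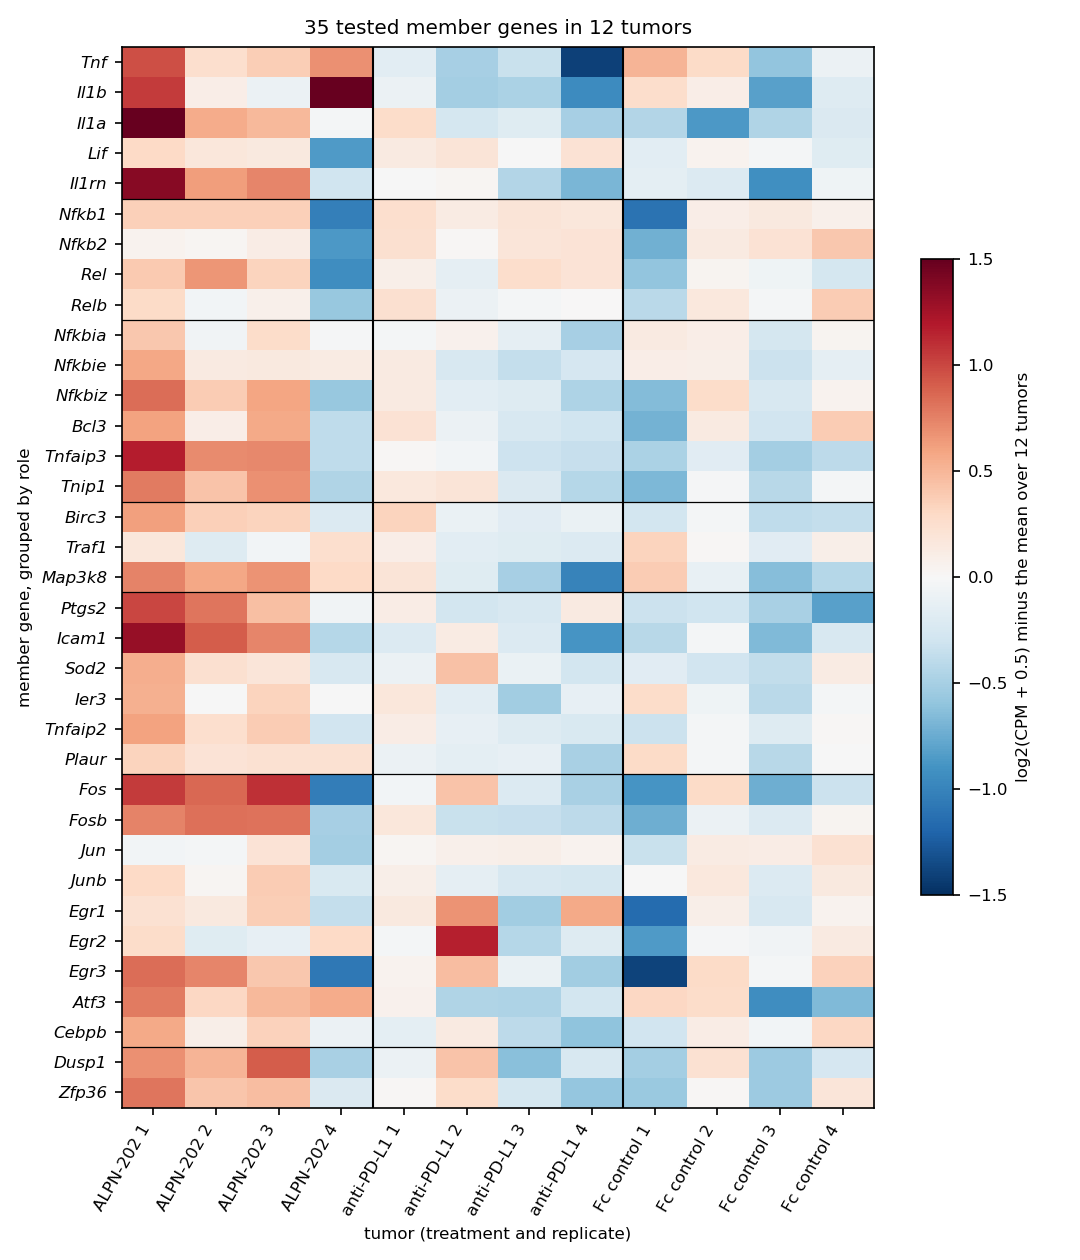
Heat map of the 35 tested members (rows, grouped by role, with lines between roles) in 12 tumors (columns, ALPN-202, anti-PD-L1 and Fc control). Color gives log2(CPM + 0.5) minus the gene's mean over the 12 tumors and is capped at 1.5 in both directions. The highest Fc control value was exceeded in 31, 22, 27 and 7 members by ALPN-202 replicates 1, 2, 3 and 4.

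Secreted ligands and the IL-1 antagonist had the largest median fold change of the 7 roles with all 12 tumors. Of 7 listed, 5 were tested, and all 5 had a fold change above 0 against Fc control (median 0.94). Il1a, Il1rn and Il1b had an unadjusted p under 0.05. Without ALPN-202 replicate 4 the median of this role fell to 0.55. Feedback genes (0.85), signaling proteins (0.70) and inhibitors (0.60) were then higher. Values per tumor are given in the order of replicates 1 to 4, as CPM after TMM scaling. Il1a (chr2:129125346-129135708, minus strand, NCBIM37), an IL-1 receptor ligand released by damaged cells and macrophages, had 11.6, 5.15, 4.89 and 3.27 CPM in ALPN-202 tumors, 4.15, 2.71, 2.89 and 2.22 CPM in anti-PD-L1 tumors and 2.34, 1.62, 2.32 and 2.82 CPM in Fc control tumors. In CPM every ALPN-202 tumor lay above every Fc control tumor, and ALPN-202 replicate 1 was the highest of the 12. On deposited TPM the Il1a values of these groups overlapped. Its log2 fold change against Fc control was 1.46 ± 0.38 (SE; edgeR, adjusted p = 0.297) and 1.64 without ALPN-202 replicate 4 (adjusted p = 0.0391). This gene was counted thinly, with 10 to 84 reads per tumor.

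Il1b, the macrophage-derived IL-1 ligand, had 116, 59.7, 52.5 and 170.1 CPM in ALPN-202 tumors, 52.3, 39.1, 39.99 and 28.9 CPM in anti-PD-L1 tumors and 67.0, 59.96, 31.5 and 48.7 CPM in Fc control tumors. Its highest value came from ALPN-202 replicate 4, the tumor in which most other members were lowest, and replicates 2 and 3 lay within the range of the Fc control tumors. Only 16.3% of tested genes were shorter than Il1b, and short genes were high in this library. With the length trend removed by offsets the log2 fold change was 0.86. The log2 fold change against Fc control was 0.94 ± 0.37 (SE; edgeR, adjusted p = 0.44) and 0.55 without that library (adjusted p = 0.308).

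Tnf (chr17:35336326-35338952, minus strand, NCBIM37), the cytokine that gives the pathway its name, had 28.2, 17.1, 18.5 and 23.2 CPM in ALPN-202 tumors, 12.7, 9.93, 11.2 and 5.07 CPM in anti-PD-L1 tumors and 20.4, 17.4, 9.28 and 13.3 CPM in Fc control tumors. Its ALPN-202 values overlapped those of Fc control, and 3 of its 4 anti-PD-L1 values lay within the Fc control range with the other below it. The fold change against Fc control was 0.53 ± 0.31 on the log2 scale (SE; edgeR, adjusted p = 0.723). Il1rn, which encodes the IL-1 receptor antagonist, had 249.9, 150.5, 162 and 79.0 CPM in ALPN-202 tumors, 96.8, 98.9, 71.4 and 59.9 CPM in anti-PD-L1 tumors and 87.6, 84.3, 51.0 and 92.6 CPM in Fc control tumors. ALPN-202 replicates 1, 2 and 3 were above, and replicate 4 within, the range of the Fc control tumors. The log2 fold change of Il1rn was 1.03 ± 0.32 (SE; edgeR, adjusted p = 0.348) and 1.24 without ALPN-202 replicate 4 (adjusted p = 0.0302).

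Lif, a cytokine of the IL-6 family, averaged 19.3 ± 6.004 CPM in ALPN-202 tumors and 18.2 ± 1.45 CPM in Fc control tumors (SD, n = 4 each), a log2 fold change of 0.10 ± 0.22 (SE; edgeR, adjusted p = 1). Il6, the acute phase cytokine, was too low for the test, with 1.51, 0.858, 0.199 and 4.90 CPM in ALPN-202 tumors, 0.109, 0.501, 0.746 and 0.178 CPM in anti-PD-L1 tumors and 1.67, 0.578, 0.516 and 0.807 CPM in Fc control tumors. Its largest value was again in ALPN-202 replicate 4, and the other 11 tumors had at most 1.67 CPM. Ccl20, the ligand of the chemokine receptor CCR6, gave 1 read in ALPN-202 tumors, 3 reads in anti-PD-L1 tumors and 0 reads in Fc control tumors, so no difference could be measured at this depth.

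The NF-kB subunits had the smallest median fold change of the 7 roles. Of 4 tested, 2 had a fold change above 0 against Fc control (median 0.07), and none had an unadjusted p under 0.05. Nfkb1, which encodes p105 and its product p50, had 203, 204, 204 and 77.7 CPM in ALPN-202 tumors, 189, 174, 181 and 178 CPM in anti-PD-L1 tumors and 73.5, 170.2, 176 and 167 CPM in Fc control tumors. ALPN-202 replicate 4 and Fc control replicate 1, the pair with the length trend, were far below the other 10 tumors, and 71.2% of tested genes were shorter than Nfkb1. Without both libraries its log2 fold change was 0.23 (edgeR, adjusted p = 0.067), against 0.23 ± 0.32 (SE, adjusted p = 1) with them.

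Nfkb2, which encodes p100 and its product p52 of the noncanonical pathway, had 262, 258, 274 and 138 CPM in ALPN-202 tumors, 299, 255, 288 and 292 CPM in anti-PD-L1 tumors and 153, 277, 294 and 335 CPM in Fc control tumors. The same pair of libraries was lowest, and the remaining values overlapped, with a log2 fold change of -0.18 ± 0.26 (SE; edgeR, adjusted p = 1). Relb, the partner of p52, had 76.1, 60.4, 65.5 and 41.8 CPM in ALPN-202 tumors, 73.6, 58.8, 60.9 and 62.7 CPM in anti-PD-L1 tumors and 47.0, 69.8, 61.1 and 81.3 CPM in Fc control tumors. All groups of Relb overlapped, and its log2 fold change was -0.09 ± 0.21 (SE; edgeR, adjusted p = 1). Rel, which encodes c-Rel of lymphoid and myeloid cells, had 5.71 ± 2.41 CPM in ALPN-202 tumors and 4.12 ± 0.852 CPM in Fc control tumors (SD, n = 4 each), with a log2 fold change of 0.50 ± 0.32 (SE).

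The inhibitors and nuclear IkB proteins were all above 0 in fold change (6 of 6, median 0.43), with Tnfaip3 and Tnip1 under an unadjusted p of 0.05. Tnfaip3 (chr10:18720716-18735463, minus strand, NCBIM37) encodes A20, the ubiquitin-editing enzyme that shuts down TNF receptor signaling, and its promoter is printed above. It had 53.8, 38.8, 39.0 and 18.0 CPM in ALPN-202 tumors, 23.8, 22.9, 18.9 and 18.4 CPM in anti-PD-L1 tumors and 16.7, 20.8, 16.3 and 17.8 CPM in Fc control tumors. ALPN-202 replicates 1, 2 and 3 stood above all 8 other tumors, and replicate 4 was within the Fc control range. The log2 fold change was 1.07 ± 0.26 (SE; edgeR, adjusted p = 0.297; DESeq2, adjusted p = 0.0176) and 1.28 without ALPN-202 replicate 4 (adjusted p = 0.0209). Long genes were low in that library, and 90.02% of tested genes were shorter than Tnfaip3. For Icam1 and Fos, also lowest of the ALPN-202 group there, 41.2% and 32.2% of tested genes were shorter. The part of gene length in these values was not tested.

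Tnip1, which encodes an adaptor of A20, had 84.9, 66.4, 79.6 and 35.9 CPM in ALPN-202 tumors, 54.9, 56.4, 42.3 and 36.5 CPM in anti-PD-L1 tumors and 30.7, 48.5, 36.8 and 48.1 CPM in Fc control tumors. It showed the same order, with ALPN-202 replicates 1, 2 and 3 above all other tumors and replicate 4 among the controls, and a log2 fold change of 0.70 ± 0.26 (SE; edgeR, adjusted p = 0.413; 0.90 without ALPN-202 replicate 4, adjusted p = 0.0412). Nfkbia, the IkB alpha gene that NF-kB itself induces, had 193, 140.5, 177 and 144 CPM in ALPN-202 tumors, 143, 153, 133 and 104 CPM in anti-PD-L1 tumors and 160.1, 157, 121 and 151 CPM in Fc control tumors. Its groups overlapped, and the log2 fold change of 0.15 ± 0.17 (SE) was within the spread between tumors (edgeR, adjusted p = 0.988). Nfkbie, the gene of IkB epsilon, had 65.9, 48.3, 48.6 and 48.0 CPM in ALPN-202 tumors, 48.2, 37.2, 34.3 and 36.7 CPM in anti-PD-L1 tumors and 47.1, 46.9, 34.98 and 39.8 CPM in Fc control tumors. All of its ALPN-202 tumors were above the Fc control tumors, though by less than 1 CPM at the closest, with a log2 fold change of 0.32 ± 0.17 (SE; edgeR, adjusted p = 0.64). The other 3 members separated in this way were Il1a, Ptgs2 and Atf3, and 2.67% of all genes had groups separated in this direction. This held on the CPM scale only. On deposited TPM the ALPN-202 and Fc control values of Nfkbie, Il1a, Ptgs2 and Atf3 overlapped. Nfkbiz and Bcl3, nuclear IkB proteins that act as cofactors of p50, had log2 fold changes of 0.51 ± 0.28 and 0.34 ± 0.27 (SE). Nfkbiz ran over 25.8 to 69.2 CPM in ALPN-202 tumors, 27.8 to 42.2 CPM in anti-PD-L1 tumors and 24.4 to 46.7 CPM in Fc control tumors, and Bcl3 over 25.8 to 51.7 CPM in ALPN-202 tumors, 27.4 to 39.4 CPM in anti-PD-L1 tumors and 20.4 to 44.2 CPM in Fc control tumors, with overlap in both.

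Of the 3 receptor signaling proteins, Birc3 and Map3k8 had an unadjusted p under 0.05 and Traf1 did not. Birc3, the cIAP2 ubiquitin ligase, had 52.0, 43.4, 43.0 and 29.4 CPM in ALPN-202 tumors, 42.7, 31.6, 29.9 and 31.5 CPM in anti-PD-L1 tumors and 27.9, 33.0, 25.8 and 26.2 CPM in Fc control tumors. ALPN-202 replicates 1, 2 and 3 were above all Fc control tumors and replicate 4 among them, with a log2 fold change of 0.57 ± 0.19 (SE; edgeR, adjusted p = 0.372). Map3k8, the TPL2 kinase that links NF-kB to ERK, had 0.79 ± 0.31 (adjusted p = 0.439). Map3k8 was low, at 8.16 to 11.3 CPM in ALPN-202 tumors, 3.02 to 7.54 CPM in anti-PD-L1 tumors and 4.04 to 8.69 CPM in Fc control tumors. Traf1, an adaptor of TNF receptor 2, had 69.2, 53.7, 59.8 and 73.1 CPM in ALPN-202 tumors, 66.3, 55.0, 54.4 and 53.2 CPM in anti-PD-L1 tumors and 78.0, 62.3, 54.5 and 65.3 CPM in Fc control tumors. The Traf1 groups overlapped throughout, with a log2 fold change of -0.03 ± 0.15 (SE; edgeR, adjusted p = 1).

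Effector targets had 6 of 6 fold changes above 0 (median 0.39), and Ptgs2 and Icam1 stood out from the other 4. Ptgs2 (chr1:151947254-151955140, plus strand, NCBIM37) encodes cyclooxygenase 2, the inducible enzyme of prostaglandin synthesis. It had 474, 411, 322 and 227 CPM in ALPN-202 tumors, 254, 195, 199.7 and 260.3 CPM in anti-PD-L1 tumors and 189.5, 191, 169 and 134 CPM in Fc control tumors. All ALPN-202 tumors were above all Fc control tumors. The anti-PD-L1 tumors were also above Fc control, the lowest by a few CPM, and 2 of them exceeded ALPN-202 replicate 4. On deposited TPM both groups overlapped Fc control (68.4 to 105.7 TPM). The lowest values were 61.0 TPM in ALPN-202 tumors and 104 TPM in anti-PD-L1 tumors. Ptgs2 had the smallest p of the module, at a log2 fold change of 1.07 ± 0.23 (SE; edgeR, unadjusted p = 0.00049, adjusted p = 0.283; DESeq2, adjusted p = 0.0028). Without ALPN-202 replicate 4 it was 1.23 (edgeR, adjusted p = 0.0209).

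Icam1 (chr9:20820404-20833241, plus strand, NCBIM37), the adhesion molecule through which leukocytes bind vessels and target cells, had 119, 90.6, 80.0 and 35.6 CPM in ALPN-202 tumors, 41.5, 52.0, 41.5 and 25.8 CPM in anti-PD-L1 tumors and 35.8, 47.0, 29.99 and 40.3 CPM in Fc control tumors. ALPN-202 replicates 1, 2 and 3 were above every other tumor, and replicate 4 was within the range of both other groups. The log2 fold change was 1.09 ± 0.32 (SE; edgeR, adjusted p = 0.33) and 1.33 without that tumor (adjusted p = 0.023). The other effector targets had smaller fold changes, at 0.40 ± 0.18 for Tnfaip2, 0.37 ± 0.20 for the mitochondrial superoxide dismutase Sod2, 0.27 ± 0.20 for the stress-induced survival gene Ier3 and 0.27 ± 0.16 for the urokinase receptor Plaur (log2, SE). Plaur ran over 156 to 170.3 CPM in ALPN-202 tumors, 96.3 to 127 CPM in anti-PD-L1 tumors and 101 to 165 CPM in Fc control tumors, Sod2 over 80.0 to 138 CPM in ALPN-202 tumors, 77.9 to 128 CPM in anti-PD-L1 tumors and 73.1 to 103 CPM in Fc control tumors, and Ier3 over 65.9 to 95.9 CPM in ALPN-202 tumors, 46.1 to 74.5 CPM in anti-PD-L1 tumors and 50.1 to 80.2 CPM in Fc control tumors. Tnfaip2 ran over 242 to 447 CPM in ALPN-202 tumors, 250.5 to 318 CPM in anti-PD-L1 tumors and 234 to 297 CPM in Fc control tumors. The ALPN-202 and Fc control values of these 4 genes overlapped.

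**Figure D2:**
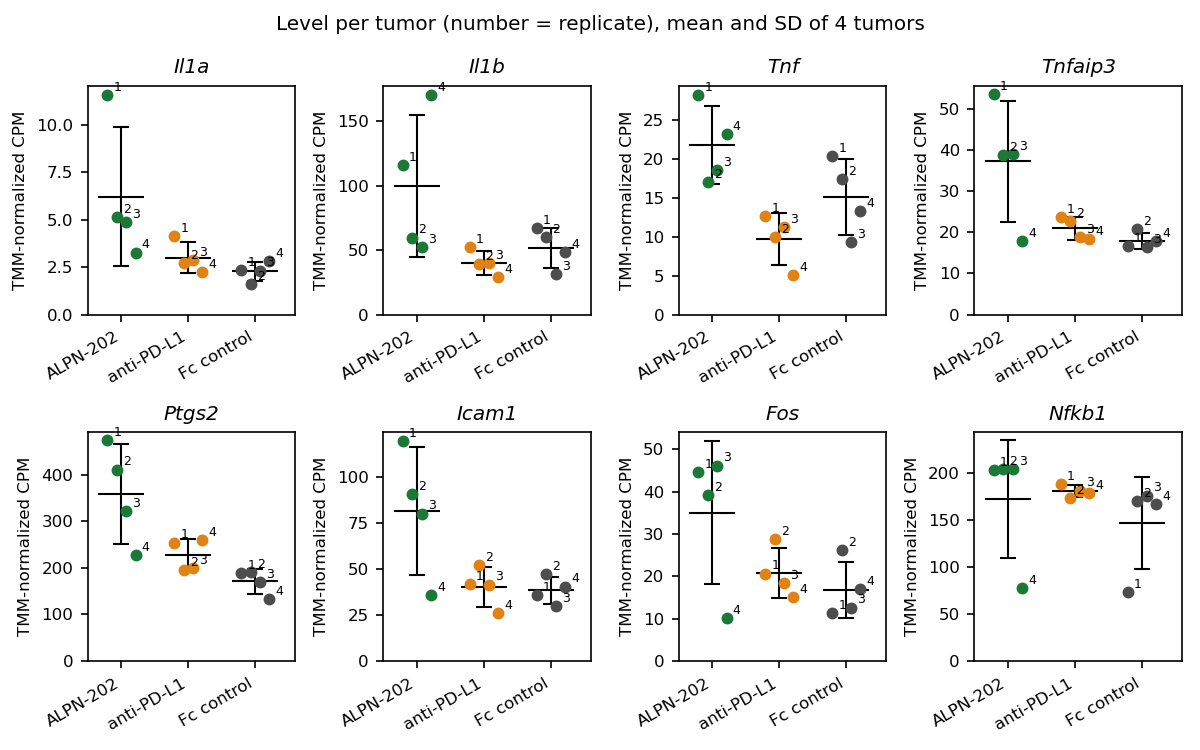
TMM-normalized CPM of 8 members (panels) in each tumor, with ALPN-202, anti-PD-L1 and Fc control from left to right. Points are tumors with their replicate number, the long dash is the mean and the bars are 1 SD of 4 tumors. Tnfaip3, Icam1 and Fos were high in ALPN-202 replicates 1, 2 and 3 and not in replicate 4, Il1b was highest in replicate 4 at 170.1 CPM, and Nfkb1 was low in ALPN-202 replicate 4 and Fc control replicate 1.

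Immediate early and stress transcription factors divided by gene rather than as a class. Of 9 tested, 8 had a fold change above 0 against Fc control (median 0.37), and Fos, Fosb and Atf3 had an unadjusted p under 0.05. Fos (chr12:86814840-86818223, plus strand, NCBIM37), the prototype AP-1 subunit, had 44.6, 39.3, 46.2 and 10.1 CPM in ALPN-202 tumors, 20.7, 28.9, 18.5 and 15.1 CPM in anti-PD-L1 tumors and 11.4, 26.1, 12.6 and 16.9 CPM in Fc control tumors. ALPN-202 replicates 1, 2 and 3 were above all 8 other tumors, whereas replicate 4 had the lowest value of the 12. Its log2 fold change of 1.07 ± 0.42 (SE; edgeR, adjusted p = 0.431) was 1.36 without that tumor (adjusted p = 0.0335). Fosb, its paralog, had 17.7, 18.8, 18.5 and 7.18 CPM in ALPN-202 tumors, 11.7, 8.12, 8.02 and 7.73 CPM in anti-PD-L1 tumors and 6.02, 9.70, 8.94 and 10.7 CPM in Fc control tumors. Its ALPN-202 replicates 1, 2 and 3 were likewise above the other tumors and replicate 4 was not, with a log2 fold change of 0.83 ± 0.30 (SE; edgeR, adjusted p = 0.402; 1.04 without ALPN-202 replicate 4, adjusted p = 0.0347).

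Jun, the main partner of Fos, had 294, 297, 349 and 212 CPM in ALPN-202 tumors, 310.2, 321, 321 and 314 CPM in anti-PD-L1 tumors and 240.1, 331, 326 and 356 CPM in Fc control tumors. Groups of Jun overlapped, and its log2 fold change was -0.12 ± 0.17 (SE; edgeR, adjusted p = 1). Junb, another AP-1 subunit, was at 0.11 ± 0.16, with 118 to 180.4 CPM in ALPN-202 tumors, 115 to 147 CPM in anti-PD-L1 tumors and 121 to 154 CPM in Fc control tumors. Egr1, a zinc finger factor induced by ERK, had 29.2, 27.4, 32.1 and 19.3 CPM in ALPN-202 tumors, 27.4, 40.01, 17.2 and 36.9 CPM in anti-PD-L1 tumors and 10.9, 26.5, 20.9 and 25.7 CPM in Fc control tumors. The Egr1 values of ALPN-202 and anti-PD-L1 tumors were intermixed, and the fold change against Fc control was 0.37 ± 0.31 on the log2 scale (SE; edgeR, adjusted p = 0.924).

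Egr2 and Egr3, the relatives of Egr1 that restrain T cell activation, were below 12 CPM in every tumor and had log2 fold changes of 0.24 ± 0.39 and 0.63 ± 0.57 (SE). Egr3 was counted with 1 to 25 reads per tumor, and Egr2 turned to -0.04 without both libraries with the length trend. Atf3, a stress-induced repressor of inflammatory genes, had 41.7, 29.9, 33.8 and 35.6 CPM in ALPN-202 tumors, 25.0, 17.3, 17.2 and 19.7 CPM in anti-PD-L1 tumors and 29.7, 29.1, 12.3 and 15.02 CPM in Fc control tumors. Here ALPN-202 replicate 4 was the second highest of its group and all 4 were above Fc control, by less than 1 CPM at the closest, with a log2 fold change of 0.71 ± 0.28 (SE; edgeR, adjusted p = 0.436). Cebpb, a factor of myeloid and acute phase genes, was at 0.21 ± 0.20, with 89.8 to 142 CPM in ALPN-202 tumors, 62.7 to 105 CPM in anti-PD-L1 tumors and 78.4 to 118 CPM in Fc control tumors.

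Both feedback genes had an unadjusted p under 0.05. Dusp1, the phosphatase that inactivates p38 and JNK, had 42.6, 37.7, 49.95 and 18.6 CPM in ALPN-202 tumors, 24.8, 35.6, 16.9 and 22.3 CPM in anti-PD-L1 tumors and 18.4, 31.0, 18.0 and 21.98 CPM in Fc control tumors. ALPN-202 replicates 1, 2 and 3 were above every Fc control tumor and replicate 4 was near the lowest of them, with a log2 fold change of 0.75 ± 0.31 (SE; edgeR, adjusted p = 0.484). Zfp36, which encodes tristetraprolin, the protein that speeds decay of Tnf and other AU-rich mRNAs, had 123, 93.3, 96.3 and 60.1 CPM in ALPN-202 tumors, 70.5, 84.7, 58.1 and 46.6 CPM in anti-PD-L1 tumors and 47.5, 71.1, 47.6 and 79.1 CPM in Fc control tumors. The first 3 ALPN-202 replicates exceeded every other tumor and replicate 4 did not, with a log2 fold change of 0.61 ± 0.26 (SE; edgeR, adjusted p = 0.502).

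Anti-PD-L1 was compared with Fc control to ask what an antibody to human PD-L1 alone did to these genes. Fold changes of the module were small and of both signs. In edgeR 0 of 35 members and 0% of all genes passed the adjusted threshold, DESeq2 also called 0, and at an unadjusted p under 0.05 there were 0 members in either direction, against 1.44% of all genes higher and 0.629% lower. The fold change was above 0 in 21 of 35 members (47.1% of all genes), with a median of 0.05 against -0.03 over all genes. Ptgs2 was the only member with separated groups in CPM (1.1% of all genes), at 0.41 ± 0.22 on the log2 scale (SE; edgeR, adjusted p = 0.826). On deposited TPM its groups overlapped. The smallest p belonged to Tnf, which pointed the other way, at -0.63 ± 0.31 (adjusted p = 0.826), followed by Ptgs2 and Egr1, the last at 0.53 ± 0.31 (adjusted p = 0.826). No alternative setting called a member here. By role the medians were 0.05 for ligands, 0.20 for subunits, -0.04 for inhibitors, -0.17 for signaling proteins, 0.05 for effector targets, 0.01 for transcription factors and 0.12 for feedback genes. Anti-PD-L1 replicates 1 and 2 each exceeded the highest Fc control value in 13 members (12.8% and 21.4% of all genes), and replicates 3 and 4 were under the lowest in 6 and 10 (11.7% and 23.1%). Adipocyte markers were high in anti-PD-L1 replicates 2 and 4, and their part in these counts was not tested.

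ALPN-202 was then set against anti-PD-L1. ALPN-202 also binds CTLA-4 and CD28, and the paper proposes that it may block PD-L1 from PD-1 less potently than a PD-L1 antibody. The comparison therefore does not isolate what the agent did beyond PD-L1 blockade. Among the 5 tested ligands and antagonist, 4 had an unadjusted p under 0.05, with Il1b at 1.31 ± 0.37, Tnf at 1.16 ± 0.31, Il1a at 1.07 ± 0.38 and Il1rn at 0.97 ± 0.32 (log2 fold change, SE), and Lif was at -0.12 ± 0.21. Again 0 of 35 members and 0% of all genes passed in edgeR, with the smallest adjusted p at 0.313 for Tnf and Il1b. DESeq2 called 1 member, Tnf (adjusted p = 0.0406), which was higher, against 1.12% of all genes higher. Unadjusted, 13 members were higher and 0 lower at p under 0.05 (6.82% and 2.47% of all genes). The fold change was above 0 in 28 members (57.4% of all genes), with a median of 0.45 against 0.07 over all genes. By role the medians were 1.07 for ligands, -0.07 for subunits, 0.46 for inhibitors, 0.31 for signaling proteins, 0.41 for effector targets, 0.48 for transcription factors and 0.56 for feedback genes.

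In this comparison 5 members had all ALPN-202 tumors above all anti-PD-L1 tumors in CPM (4.8% of all genes): Tnf, Il1b, Map3k8, Plaur and Atf3. In the other direction 0 members were separated (2.75% of all genes). On deposited TPM only Il1b of these 5 stayed separated, narrowly, at 86.3 TPM in the lowest ALPN-202 and 86.2 TPM in the highest anti-PD-L1 tumor. For Plaur the lowest ALPN-202 value was 126 TPM, and anti-PD-L1 tumors had 175 to 213 TPM. For Tnf the lowest ALPN-202 value was 17.1 CPM and the highest anti-PD-L1 value 12.7 CPM, and for Plaur they were 156 and 127 CPM. Tnfaip3 was at 0.84 ± 0.26 (edgeR, adjusted p = 0.333), Icam1 at 1.02 ± 0.32 (adjusted p = 0.333) and Ptgs2 at 0.66 ± 0.22 (adjusted p = 0.352). Without both libraries with the length trend, 9 members passed (4.5% of all genes): Tnfaip3, Fosb, Icam1, Ptgs2, Il1rn, Nfkbiz, Tnfaip2, Fos and Tnip1. Both comparisons use the same 4 ALPN-202 tumors, and both comparisons with Fc control share their 4 control tumors, so their values are not independent.

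**Figure D3:**
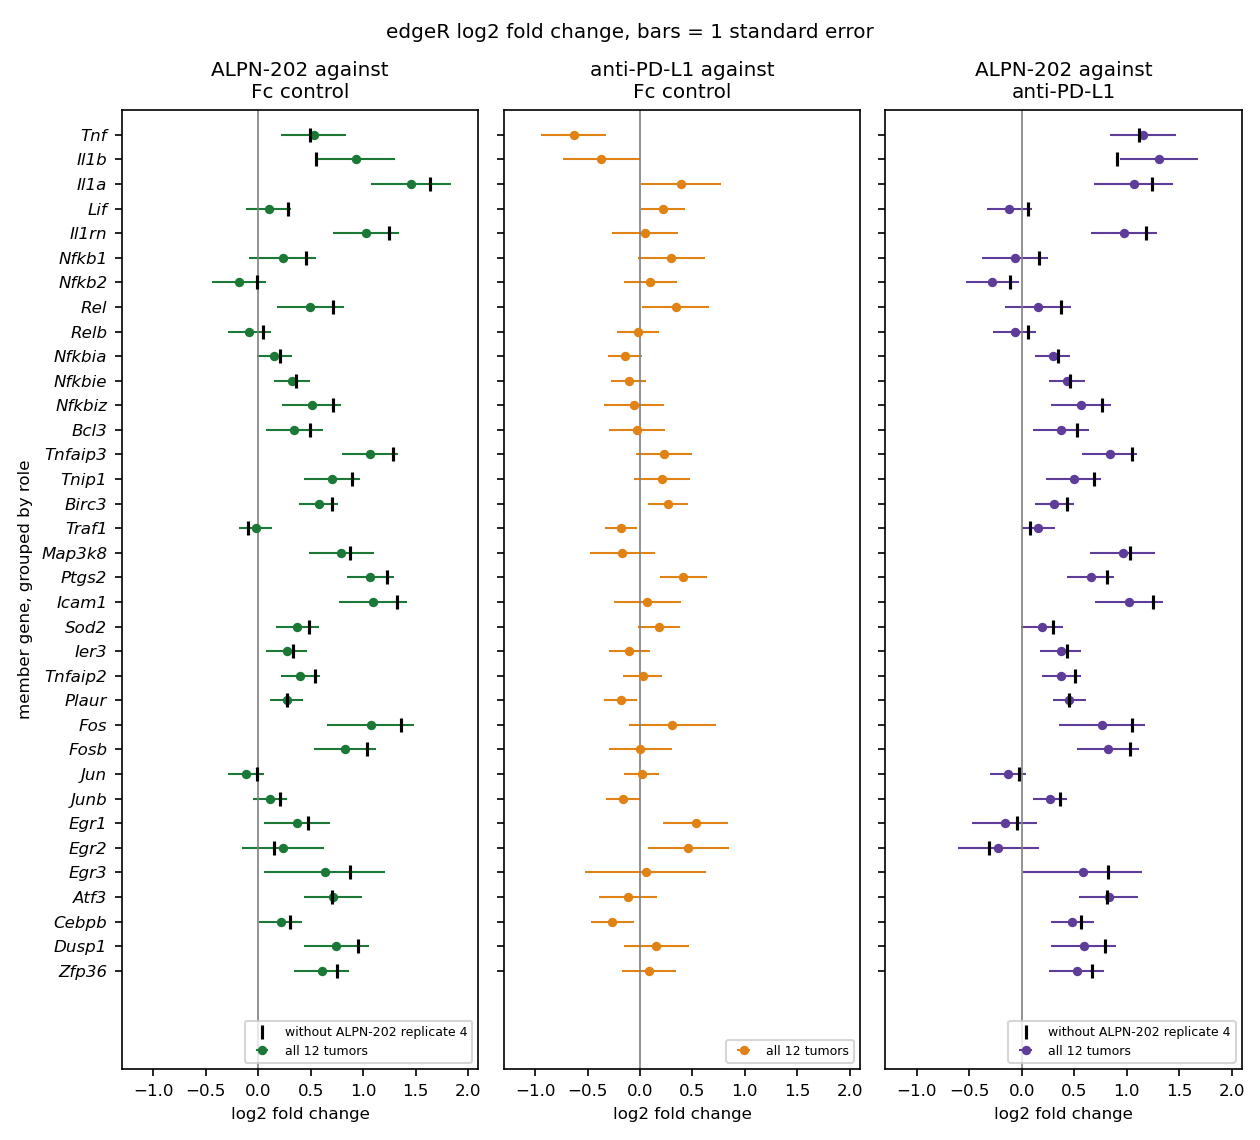
Log2 fold changes of the 35 tested members (rows, grouped by role) for ALPN-202 against Fc control, anti-PD-L1 against Fc control and ALPN-202 against anti-PD-L1. Dots are edgeR estimates from all 12 tumors, bars are 1 SE and black ticks in both ALPN-202 panels are the estimates without ALPN-202 replicate 4. The medians were 0.50, 0.05 and 0.45, and Relb and Jun lie within 0.14 of 0 in all 3 panels.

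On the deposited TPM scale, which allows levels to be compared between genes, the module spanned a wide range. In Fc control tumors Jun (212 ± 69.1 TPM), Plaur (196 ± 17.5), Nfkbia (194 ± 29.0) and Nfkb2 (182 ± 78.0) had the highest means (SD, n = 4), and neighbours among these did not differ beyond their spread. Il1a (2.44 ± 0.802 TPM), Egr3 (1.88 ± 1.16) and Il6 (1.58 ± 0.533) had the lowest above 0. Among the ligands and antagonist, Il1b and Il1rn were the most abundant per length. Il1b was at 127 ± 43.8 TPM in ALPN-202 tumors, 68.6 ± 13.6 TPM in anti-PD-L1 tumors and 77.2 ± 13.9 TPM in Fc control tumors, and Tnf was at 25.4 ± 8.80, 13.7 ± 4.27 and 18.5 ± 3.20 TPM in the same groups. Il1rn was at 134 ± 74.9, 76.5 ± 13.5 and 65.7 ± 15.3 TPM. Of the 5 members with the largest fold changes against Fc control, Ptgs2 was the most abundant, at 86.1 ± 18.4 TPM in Fc control tumors, and Il1a the least.

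**Figure D4:**
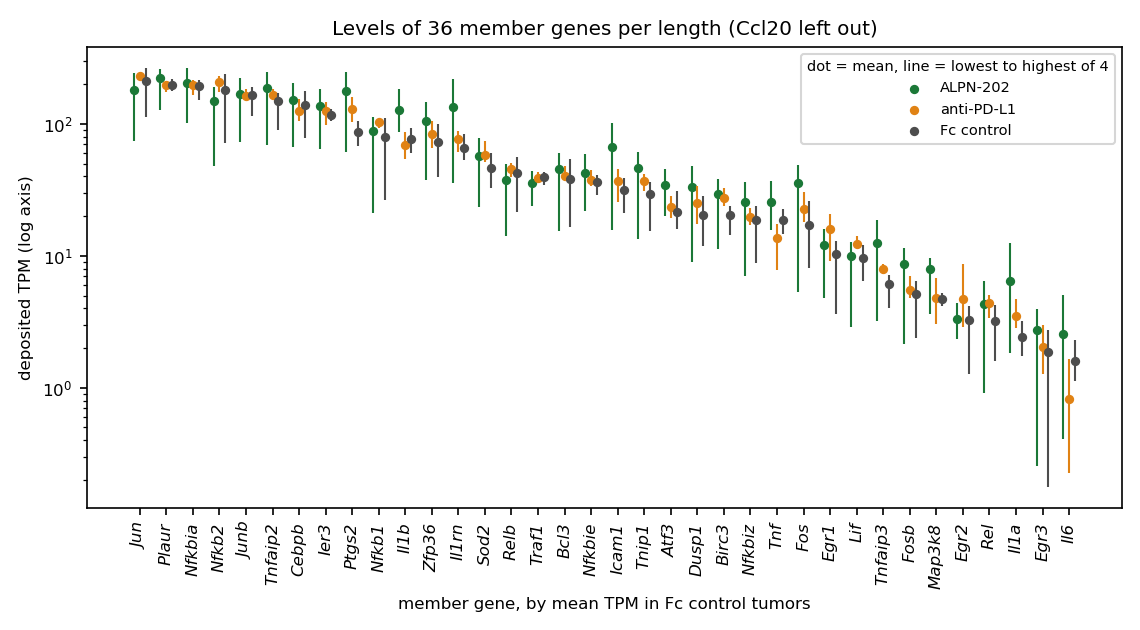
Deposited TPM of 36 members on a log axis, ordered by the mean in Fc control tumors. Dots are group means, lines run over the lowest to highest of 4 tumors, and ALPN-202, anti-PD-L1 and Fc control stand from left to right for each gene. Means in Fc control tumors ran over 1.58 TPM for Il6 up to 212 TPM for Jun, and Ccl20, listed at 0 in every Fc control tumor, is left out.

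Genes of the same pathways that are not members, listed by textbook role, are described by counts in the comparison of ALPN-202 with Fc control, in which 0 passed the adjusted threshold in edgeR. At an unadjusted p under 0.05, 7.2% of all genes were higher and 1.98% lower. Among 18 TNF, IL-1 and Toll-like receptors and adaptors, 8 were higher at an unadjusted p under 0.05 and 0 lower (median 0.39), and the smallest p belonged to Cd14, the coreceptor for lipopolysaccharide (1.15 ± 0.32, adjusted p = 0.312), and Irak2, a kinase of IL-1 signaling (0.84 ± 0.28, adjusted p = 0.375). Among 20 genes of the IKK, TAK1 and NF-kB core, 2 were higher and 0 lower (median 0.03), namely the related kinases Ikbke (1.02 ± 0.34) and Tbk1 (0.33 ± 0.14). Among 16 MAP kinase and AP-1 relatives, only Batf, an AP-1 factor of lymphocytes and dendritic cells, passed the unadjusted threshold (1.10 ± 0.48, median -0.06), and Elk1, a partner of serum response factor, came next (0.29 ± 0.14). The counts of the core list and of this list were near the share over all genes.

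Other immediate early genes had 6 of 24 tested genes higher at an unadjusted p under 0.05 and 0 lower (median 0.25), against 7.2% and 1.98% of all genes. Cyr61, a matrix protein gene, had 156 to 179 CPM in ALPN-202 tumors, 116 to 129.8 CPM in anti-PD-L1 tumors and 85.5 to 136 CPM in Fc control tumors, with no overlap between ALPN-202 and either other group (0.64 ± 0.15, edgeR, adjusted p = 0.285). The nuclear receptor Nr4a3 had 1.22 ± 0.41 (adjusted p = 0.372). Other TNF and NF-kB targets had 9 of 23 higher and 0 lower (median 0.56), among them Clec4e, the macrophage lectin Mincle (1.23 ± 0.40, adjusted p = 0.366). The core signaling and AP-1 lists thus had medians near that of all genes (0.04), as did the NF-kB subunits among the members.

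Cell markers were set beside the module, since macrophages, neutrophils and T cells all express parts of it. The 10 macrophage and monocyte markers summed to 3396 to 5822 CPM in ALPN-202 tumors, 1603 to 3279 CPM in anti-PD-L1 tumors and 2117 to 3744 CPM in Fc control tumors, with 10 of 10 fold changes against Fc control above 0. The 6 neutrophil markers summed to 22.5 to 85.6 CPM in ALPN-202 tumors, 8.98 to 34.0 CPM in anti-PD-L1 tumors and 11.4 to 28.0 CPM in Fc control tumors, and 3 of 3 tested were above 0. The 10 T cell markers summed to 142 to 254 CPM in ALPN-202 tumors, 21.8 to 89.3 CPM in anti-PD-L1 tumors and 29.0 to 67.0 CPM in Fc control tumors, with no overlap between ALPN-202 and either other group, and 10 of 10 were above 0. With all tumors, 0 of these 23 tested markers passed the adjusted threshold in edgeR against Fc control. Without ALPN-202 replicate 4, 1 of 3 neutrophil, 4 of 10 macrophage and monocyte and 6 of 10 T cell markers passed, all higher. Without both libraries with the length trend these counts were 1, 5 and 8. In the same fits 9 and 11 of the 35 tested members passed.

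Within the ALPN-202 group the median log2 deviation of the 35 members was 0.61, 0.26, 0.37 and -0.28 in replicates 1 to 4, beside neutrophil marker sums of 85.6, 55.0, 54.4 and 22.5 CPM and macrophage marker sums of 5822, 4965, 5018 and 3396 CPM. The ALPN-202 tumor with the lowest module level, replicate 4, was lowest of its group in both sums, and it is the library with the length trend. This order was not particular to those cells. Replicate 4 was also lowest in the sums of T cell, mast cell, fibroblast (3121 against 7270 to 10901 CPM), endothelial and skeletal muscle markers. It was not lowest in those of dendritic cells, NK cells, B cells, adipocytes, epithelium and keratinocytes. Single markers did not all follow the sums. Most of the neutrophil sum was Csf3r, at 66.3, 50.1, 49.95 and 7.18 CPM in ALPN-202 replicates 1 to 4. S100a8, at 5.64, 2.19, 1.10 and 5.55 CPM, and S100a9, at 10.6, 2.00, 1.99 and 9.14 CPM, were second highest in replicate 4. The monocyte marker Ccr2 was highest there, at 82.6 CPM against 56.2 to 74.7 CPM in the other ALPN-202 tumors. Ly6g, a defining neutrophil marker, was at 0 in every tumor of all groups but Fc control replicate 4 (0.101 CPM) and anti-PD-L1 replicate 3 (0.0932 CPM). No marker of any of the 13 lists was at 0 in all tumors. The part of these cells in the module's levels was not tested.

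**Figure D5:**
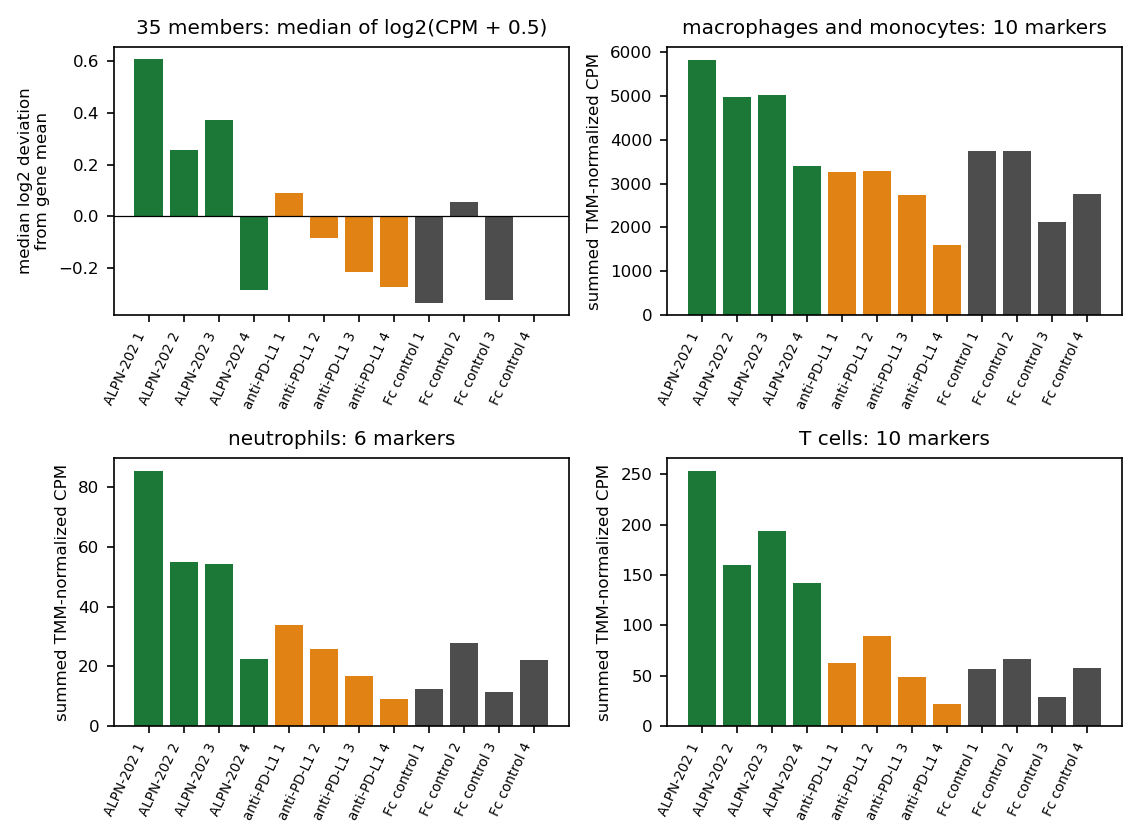
Bars for 12 tumors (ALPN-202 green, anti-PD-L1 orange, Fc control grey) give the median over the 35 members of log2(CPM + 0.5) minus each gene's mean, and the summed CPM of macrophage and monocyte, neutrophil and T cell markers. ALPN-202 replicate 1 was highest in all 4 panels, and ALPN-202 replicate 4 was at -0.28 for the members.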

How the data were processed

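Groups of the 12 tumors were taken from the sample labels. The authors deposited raw counts per gene, made from full-length cDNA (SMART-Seq v4, Nextera XT, single reads, a kit that does not mark strand) and htseq-count. The methods name STAR, whereas the processing notes of the submitters give NCBIM37, TopHat 1.4.1, SAMtools 1.2, HTSeq 0.4.1, FastQC 0.11.3 and Picard 1.134, so the aligner is not settled. The authors also deposited TPM, which scale for gene length. Analyses on log2 values of the deposited TPM are named as such.

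Counts were scaled by TMM, filtered with filterByExpr (minimum count 10, minimum total 15) and fitted for all 12 tumors in 1 quasi-likelihood model with 9 residual degrees of freedom (edgeR 4.0.16 in R 4.3.3). Each of 3 contrasts was adjusted by Benjamini-Hochberg over 14142 genes at 0.05. An SE is the log2 fold change divided by the square root of its F statistic. CPM values are TMM-scaled. Whether tumors of 1 group came from separate cages or days was not given, so p-values weigh group differences against the spread between these tumors only. The per-tumor order among replicates has no meaning.

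The alternatives were RLE size factors, no filter, DESeq2 1.42.0, the replicate number as a block, a length trend removed by offsets, limma 3.58.1 on log2(TPM + 1) or log2(TPM + 0.1), each tumor left out in turn, and sets of 2 or 4 tumors left out. The members, the pathway and marker lists and the tumors left out in sets were chosen with earlier results of these data known. All members are named. Full values were given for 16 members set by role and for the 3 with the smallest p in each comparison, and for a few others picked after their values were seen. From each pathway list the 2 genes with the smallest p against Fc control were named, except 1 gene that is not reported here. Libraries shared identical counts in at most 1.87% of genes. Gene positions are from GENCODE on NCBIM37 and promoters from RefSeq on GRCm38.p6, and coordinates were not converted between them. Software was Python 3.11.15, NumPy 2.4.6, pandas 2.3.3 and Matplotlib 3.10.9.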

Additional observations from a re-analysis of the deposited data

Results flagged for a closer look

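A tumor far from the other 3 of its group was looked for in 105 combinations of member and group by Dixon's ratio (gap over range, against its 95% limit for 4 values), and 9 exceeded it. Chance alone flags about 1 in 20 such groups. In ALPN-202 replicate 4 the low values were Nfkb1 (77.7 CPM against 203 to 204 CPM, ratio 0.989), Nfkb2 (138 against 258 to 274 CPM, ratio 0.883) and Fosb (7.18 against 17.7 to 18.8 CPM, ratio 0.911). Nfkb1 was also low in Fc control replicate 1 (73.5 against 167 to 176 CPM, ratio 0.913), the other library with a length trend. ALPN-202 replicate 1 was high for Nfkbie (65.9 against 48.0 to 48.6 CPM, ratio 0.969). High values in anti-PD-L1 replicate 1 were Birc3 (42.7 against 29.9 to 31.6 CPM, ratio 0.871), Traf1 (66.3 against 53.2 to 55.0 CPM, ratio 0.855) and Fosb (11.7 against 7.73 to 8.12 CPM, ratio 0.902). Egr2 was high in anti-PD-L1 replicate 2 (11.7 against 3.54 to 4.81 CPM, ratio 0.845).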

How the results depend on the processing

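The number of members called against Fc control in ALPN-202 tumors was 0 in edgeR, 3 with DESeq2, 0 to 9 with each tumor left out in turn (9 without ALPN-202 replicate 4, 0 in the other 11 fits), 11 without both libraries with a length trend and 5 without the 4 tumors with adipocyte genes. For ALPN-202 against anti-PD-L1 it was 1 with DESeq2 and 9 without both libraries, and 0 under the other alternatives. The members' median log2 fold change stayed above 0 under all 21 alternatives in both comparisons of ALPN-202, at 0.24 to 0.59 and 0.10 to 0.52. In ALPN-202 against anti-PD-L1 it fell to 0.12 and 0.10 with limma on log2(TPM + 1) and log2(TPM + 0.1), where the median of all genes was -0.24 and -0.27, so relative to all genes the members were still higher. For anti-PD-L1 against Fc control it was -0.05 to 0.22, and no member was called under any alternative. Fitted with the replicate block, 0 members and 0 genes passed, with medians of 0.45, 0.01 and 0.46 in the 3 comparisons. Numbers do not pair these tumors: 1 of 12 libraries had its best correlation with a same-numbered one, and same-number correlations ran over -0.479 to 0.459. No called member changed direction. Depth limited Il6, Ccl20 and Egr3. With the length trend removed by offsets 0 members were called in any comparison, with medians of 0.46, 0.12 and 0.34. Why calls differed between the alternatives was not tested.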
